A study of Mus musculus with 6 samples.

Results

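A set of 10 genes of muscle energy buffering was followed in the gastrocnemius muscle of old mice given inotodiol or vehicle. They were taken by gene symbol from the deposited count tables, and all 10 were found among the 23282 rows. These were the creatine genes Ckm, Ckmt2, Slc6a8 and Gamt, the adenine nucleotide genes Ak1, Ampd1 and Ampd3, and the genes Prkaa2, Prkab2 and Prkag3 of the AMP-activated protein kinase, AMPK. The mice were wild-type males of the strain written C57/BL6J in the labels, aged 20 months. Each group held 3 mice, labelled as biological replicates. Inotodiol, a triterpenoid of the chaga mushroom, was given by mouth every day for 10 weeks at 0.35 mg/kg, and the control mice had a carrier of PEG (40%), Tween 80 (5%) and saline (0.9%). By its title the series concerns loss of muscle with age, mitochondria and signalling by liver X receptor beta. The question taken up here is whether the transcripts of energy buffering differ between treated and untreated old muscle. No young mice were analysed here, so no value below speaks of ageing.

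A contracting fibre spends ATP faster than mitochondria replace it, and a pair of enzyme systems hold the level up in the meantime. Creatine kinase moves phosphate between phosphocreatine and ADP. Adenylate kinase makes ATP and AMP from a pair of ADP molecules, and AMP deaminase removes the AMP. AMPK, a complex of a catalytic alpha, a scaffold beta and a nucleotide-binding gamma subunit, is switched on when AMP and ADP accumulate, and the alpha2, beta2 and gamma3 subunits are the forms typical of skeletal muscle.

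None of the 10 genes passed edgeR's quasi-likelihood test of inotodiol against vehicle muscle, with adjusted p from 0.96 to 0.996 over all 11700 genes tested. All 10 passed the filter on low counts. The same test called 0 genes in the whole table (0%), and DESeq2 called 1 gene and limma-voom 0, none of them among the 10. At an unadjusted p under 0.05 there were 0 of the 10 genes and 570 genes in all (4.87%). The values of the 2 groups overlapped for each of the 10 genes, whereas the groups did not overlap for 10.4% of all genes. With TMM scaling 5 of the 10 genes had a log2 fold change above 0 and 5 below, with a median of 0.019, and 49.9% of all genes were above 0. These shares are close to those of the whole table.

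Library totals lay between 8961893 and 9953764 counts. The precursor ribosomal RNA Rn45s took from 3.97% to 6.82% of the counts in vehicle libraries and from 4.33% to 10.2% in inotodiol libraries. Scaling to library totals in place of TMM shifted all genes to a median log2 fold change of -0.12, with 33.2% of them above 0. All 10 genes then lay below 0, so directions given here are relative to the other genes. With library totals without Rn45s, 5 of the 10 genes lay above 0 and 5 below, and 39.3% of all genes were above 0. The tissue label was checked on 10 muscle fibre genes (Acta1, Mb, Des, Casq1, Atp2a1, Tnnt3, Tnni2, Myh1, Myh2 and Myh4). All were tested, and together they took 135253 to 142475 CPM in vehicle and 141947 to 149171 CPM in inotodiol libraries. CPM are counts per 1000000 counts of the library, and they are TMM-scaled, which evens out library composition, unless called unscaled. In bulk muscle, fewer cells of a type and less RNA per cell cannot be told apart.

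The promoters of the creatine genes are shown because the muscle creatine kinases and the enzyme of creatine synthesis differ in them. The letters were searched in the 250 bases before each start in RefSeq's GRCm38.p6 table, on both strands, for CAGCTG, an E-box of the kind bound by myogenic factors, and for GGGCGG, the GC box bound by Sp1. The letters of the 2 motifs do not overlap in the stretches printed. Capitals mark either motif, so CCGCCC is the GC box on the other strand.
Ckm: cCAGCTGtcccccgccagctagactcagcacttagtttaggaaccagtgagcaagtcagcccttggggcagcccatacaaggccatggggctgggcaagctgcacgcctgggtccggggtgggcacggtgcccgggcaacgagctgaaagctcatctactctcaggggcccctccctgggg
Ckmt2: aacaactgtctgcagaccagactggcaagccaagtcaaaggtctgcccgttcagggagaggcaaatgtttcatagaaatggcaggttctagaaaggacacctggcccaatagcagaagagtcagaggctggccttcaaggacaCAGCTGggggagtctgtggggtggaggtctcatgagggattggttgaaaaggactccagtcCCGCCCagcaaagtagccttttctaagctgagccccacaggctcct
Gamt: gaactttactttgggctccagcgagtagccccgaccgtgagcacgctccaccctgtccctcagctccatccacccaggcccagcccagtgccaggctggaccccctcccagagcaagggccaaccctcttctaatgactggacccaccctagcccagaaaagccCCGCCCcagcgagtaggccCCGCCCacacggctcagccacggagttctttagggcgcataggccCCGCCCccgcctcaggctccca
The Ckm stretch, chr7:19410844-19411024 on the plus strand, holds bases 250 to 70 before the start, since annotated exons cover the rest, and its E-box begins 249 bases before the start. The Ckmt2 stretch, chr13:91876886-91877135 on the minus strand, has an E-box that begins 107 bases and a GC box that begins 46 bases before the start. In the Gamt stretch, chr10:80261013-80261262 on the minus strand, 3 GC boxes begin 86, 67 and 22 bases before the start and CAGCTG was not found. Starts were listed for 8 of the 10 genes, all but Slc6a8 and Ampd1, and of their 13 starts 5 had CAGCTG (38.5%) and 4 had GGGCGG (30.8%). Among all 32851 starts of the table the shares were 13.0% and 32.7%. Starts of the same gene, such as those of Ak1, were counted separately. By gene, 4 of the 8 had CAGCTG and 4 had GGGCGG, and no share by gene was taken over the whole table. The Prkag3 window, with 1 CAGCTG, was covered by annotated exon over all 250 bases. All of these are matches of letters in a window, and binding was not measured.

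**Figure D1:**
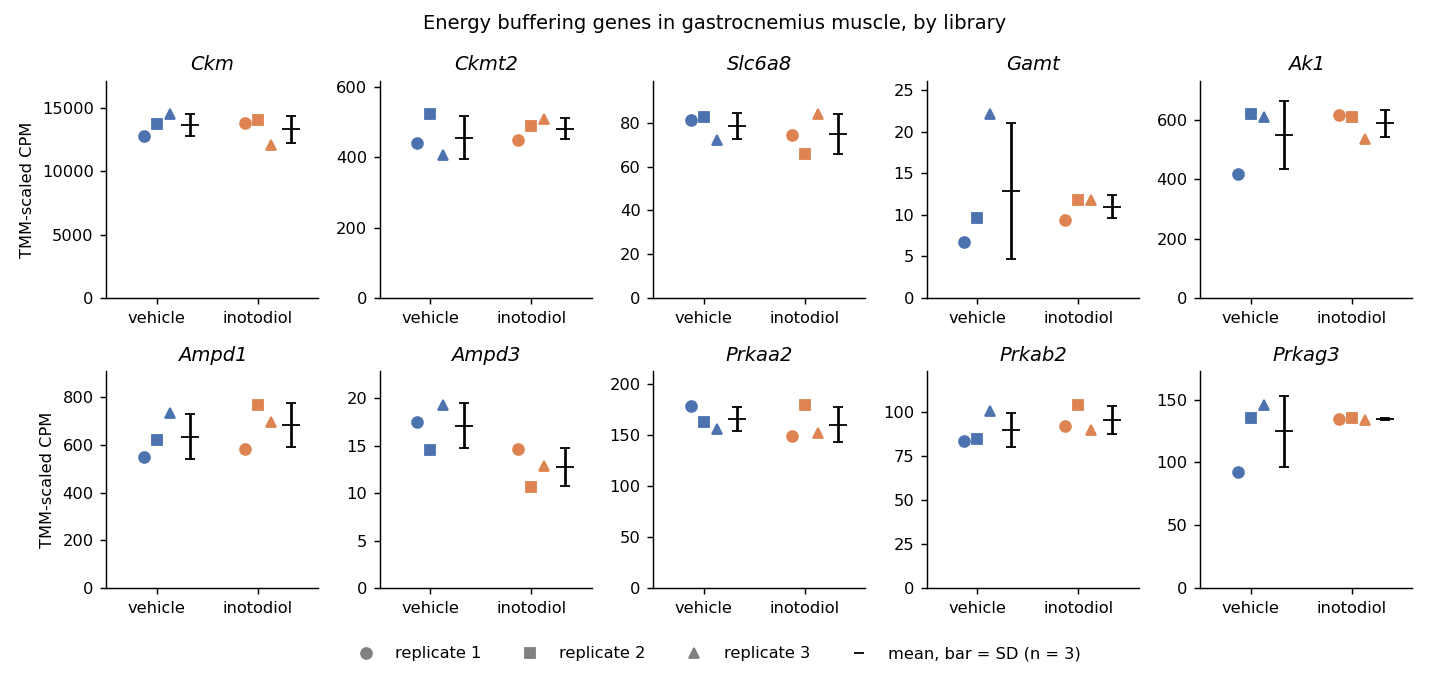
TMM-scaled CPM of the 10 genes (y axes from 0) in the 3 vehicle and 3 inotodiol libraries; each symbol is 1 library, the black dash and bar are the group mean and SD (n = 3). In each panel the groups overlap; Gamt reaches 22.1 CPM in vehicle 3, and Ak1 and Prkag3 are lowest in vehicle 1.

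Ckm, the cytosolic creatine kinase of muscle (ENSMUSG00000030399.2, chromosome 7, 19404776 to 19422841), was the most abundant of the 10 transcripts and stood at rank 10 of all genes by mean CPM. It took from 1.24% to 1.54% of all counts in a library. Its level was 12815, 13754 and 14538 CPM in vehicle libraries 1 to 3 and 13831, 14069 and 12083 CPM in inotodiol libraries 1 to 3. The highest and the lowest library differed by 1.20 times, and both groups held a high and a low mouse. The means were 13702 ± 862 and 13327 ± 1085 CPM (SD, n = 3), and the log2 fold change was -0.040 ± 0.11 (SE) with a 95% interval from -0.27 to 0.19. That interval covers ratios of inotodiol to vehicle from 0.832 to 1.14. The direction was not stable, at 0.0048 without vehicle replicate 3 and 0.025 without inotodiol replicate 3. Relative to library totals all 3 inotodiol values of Ckm (12360 to 13067 unscaled CPM) were below the 3 vehicle values (13577 to 15421), as for 10.4% of all genes in that direction, and the log2 fold change was -0.16 (unadjusted p = 0.18, adjusted p = 0.86 in edgeR).

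Ckmt2, the sarcomeric mitochondrial creatine kinase that charges creatine beside the ATP exporter (ENSMUSG00000021622.3, chromosome 13, 91853387 to 91876885), had 441, 523 and 406 CPM in vehicle and 450.0, 488 and 508 CPM in inotodiol libraries. The vehicle group held both the highest and the lowest library. The log2 fold change was 0.079 ± 0.13 (95% interval -0.20 to 0.36). Relative to Ckm counted in the same library, which no scaling affects, the log2 ratio of Ckmt2 to Ckm was -4.91 ± 0.23 in vehicle and -4.79 ± 0.19 in inotodiol muscle (SD, n = 3). The difference of 0.13 gave an exact two-sided permutation p of 0.50, where 3 mice against 3 cannot go below 0.10. It was 0.0016 without vehicle replicate 3 and 0.018 without inotodiol replicate 3. Counts may include reads of genes on the other strand, since the strand setting is not given in the sources used here. Exons of A930016O22Rik cover 16.4% of the exonic bases of Ckm and exons of 1700119I11Rik cover 5.65% of those of Ckmt2.

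The remaining creatine genes supply the substrate. Slc6a8, the creatine transporter of the plasma membrane (ENSMUSG00000019558.14, chromosome X, 73673150 to 73682502), had 81.4, 82.6 and 71.99 CPM in vehicle and 74.7, 66.0 and 84.0 CPM in inotodiol libraries. Inotodiol 2 was the lowest and inotodiol 3 the highest of all libraries. Its log2 fold change was -0.070 ± 0.15 (95% interval -0.40 to 0.25), and 0.013 without inotodiol replicate 2. Gamt, which methylates guanidinoacetate to creatine in the last step of synthesis (ENSMUSG00000020150.13, chromosome 10, 80258151 to 80261012), was rare in this muscle, with 64, 89 and 225 counts in vehicle and 86, 106 and 115 counts in inotodiol libraries. In CPM these were 6.74, 9.61 and 22.1, and 9.33, 11.8 and 11.8. One mouse, vehicle 3, stood apart, and without it the vehicle values were the lower ones on average. The log2 fold change was accordingly -0.23 ± 0.37 with all libraries (95% interval -1.03 to 0.58) and 0.42 without vehicle replicate 3 (unadjusted p = 0.21, adjusted p = 1.00 in edgeR). Vehicle 3 also had the highest summed level of the 8 fibroblast genes, 1924 CPM against 972 to 1153 CPM in the other libraries, and of the 10 macrophage genes, 272 CPM against 69.2 to 199 CPM. All genes of both lists were tested and none was at 0 in all libraries. The part of these cells in the Gamt values was not tested. The 14 hepatocyte genes, markers of an organ that makes creatine, were at 40.8 to 97.3 CPM in vehicle and 111 to 719 CPM in inotodiol libraries. The part of liver transcripts in the Gamt values was not tested either.

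Of the 7 creatine system genes listed, 6 were tested, 3 of them above and 3 below 0, with a median log2 fold change of -0.019 and 0 called. Ckb, the brain-type creatine kinase, had 36 to 83 counts a library and a log2 fold change of 0.0013 ± 0.38. Gatm, which makes guanidinoacetate, had 0 to 31 counts a library and a log2 fold change of 0.92 ± 0.95. Ckmt1, the ubiquitous mitochondrial form, had 0 counts in all 6 libraries. The ratio of Slc6a8 to Gamt, transport against synthesis, was 2.80 ± 0.98 in vehicle and 2.77 ± 0.26 in inotodiol muscle on the log2 scale (exact permutation p = 1.0).

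**Figure D2:**
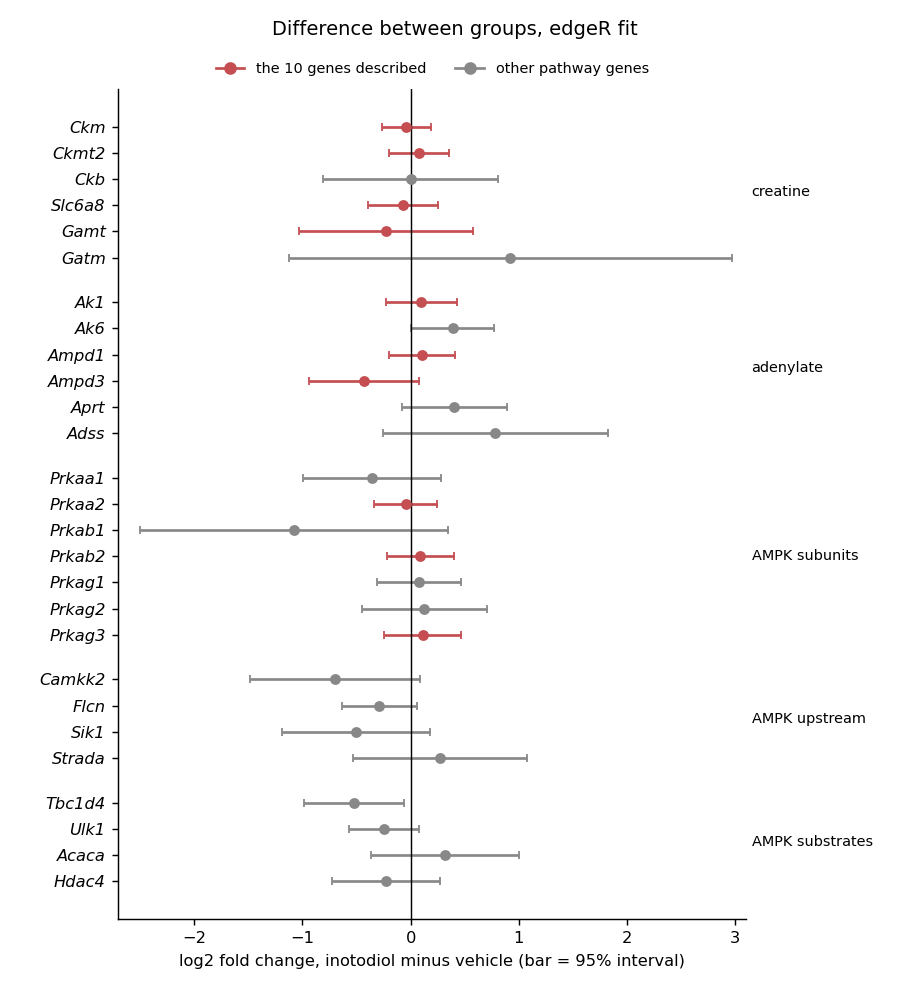
Log2 fold changes of inotodiol against vehicle with 95% intervals from edgeR's fit, for the 10 genes (red) and part of the pathway genes named in the text (grey). They are grouped by role. Genes named after their values were seen, such as Nt5c3, Slc25a4 and Stk11, are not drawn. No interval of the 10 genes leaves 0; Ampd3 comes nearest, from -0.93 to 0.079.

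Among the adenine nucleotide genes, Ak1, the cytosolic adenylate kinase of muscle (ENSMUSG00000026817.14, chromosome 2, 32621758 to 32635058), had 418, 619.7 and 610.2 CPM in vehicle and 618, 611 and 536 CPM in inotodiol libraries. Vehicle 1 was lowest, inotodiol 3 came next, and the remaining libraries lay close together. The log2 fold change was 0.099 ± 0.15 (95% interval -0.23 to 0.42) and -0.064 without vehicle replicate 1. Ampd1, the muscle AMP deaminase (ENSMUSG00000070385.12, chromosome 3, 103074014 to 103099720), had 550.4, 618 and 733 CPM in vehicle and 583, 768 and 695 CPM in inotodiol libraries. The spread was alike in both groups, 92.4 and 93.1 CPM (SD, n = 3), and larger than the difference of their means, 634 and 682 CPM. Its log2 fold change was 0.11 ± 0.14 (95% interval -0.20 to 0.41). Relative to Ampd1, Ak1 did not move beyond the spread, with log2 ratios of -0.22 ± 0.20 and -0.21 ± 0.25 (exact permutation p = 0.90).

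Ampd3, the AMP deaminase named for red blood cells, which is also known to be induced in denervated and wasting muscle (ENSMUSG00000005686.17, chromosome 7, 110768206 to 110812405), had the smallest p of the 10 genes and did not pass the test. Its counts were 166, 135 and 197 in vehicle and 135, 96 and 126 in inotodiol libraries. In CPM these were 17.5, 14.6 and 19.3, and 14.6, 10.7 and 12.9. The groups met at one point, vehicle 2 with 14.58 and inotodiol 1 with 14.65 CPM. The means were 17.1 ± 2.41 and 12.7 ± 2.00 CPM (SD, n = 3), a log2 fold change of -0.43 ± 0.24 with a 95% interval from -0.93 to 0.079 (unadjusted p = 0.092, adjusted p = 0.96 in edgeR). The log2 fold change was below 0 with every alternative run, from -0.55 to -0.31, at adjusted p from 0.79 to 1.00. With library totals the groups no longer overlapped (14.6 to 20.5 against 9.89 to 13.6 unscaled CPM) and the unadjusted p was 0.044, adjusted 0.79. With that scaling 10.4% of all genes did not overlap with inotodiol lower, and 726 genes were at an unadjusted p under 0.05. Exons of Rnf141 and B430319F04Rik on the other strand cover 9.11% of its exonic bases, and 83 bases are shared with Gm47282 on the same strand.

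Against Ampd1 in the same library, the log2 ratio of Ampd3 was -4.98, -5.41 and -5.24 in vehicle and -5.31, -6.17 and -5.75 in inotodiol libraries. Inotodiol 1 lay within the vehicle range and the other inotodiol libraries below it. The difference of -0.54 had an exact two-sided permutation p of 0.20 and an adjusted p of 0.875 over the 7 ratios compared, and was between -0.75 and -0.32 with single libraries left out. Of the 9 tested genes of the denervation and atrophy list, 3 were above and 6 below 0, with a median of -0.14 and 0 called. Without vehicle replicate 1 that median was 0.11, with the replicate block -0.055 and with limma-voom -0.044. Chrna1, the acetylcholine receptor subunit that spreads over denervated fibres, had a log2 fold change of -0.57 ± 0.20 (unadjusted p = 0.014, adjusted p = 0.94 in edgeR). The 8 erythroid genes were at 5342 to 7580 CPM in vehicle and 4332 to 15126 CPM in inotodiol libraries, highest in inotodiol 2, and their part in the Ampd3 values was not tested.

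Of the 23 genes of adenylate kinases and adenine nucleotide turnover, 20 were tested, 10 of them above and 10 below 0, with a median of 0.017 and 0 called. One gene was at an unadjusted p under 0.05, Ak6, a nuclear adenylate kinase, with 23.1 ± 1.93 and 30.2 ± 1.29 CPM (SD, n = 3), a log2 fold change of 0.39 ± 0.18 (unadjusted p = 0.047, adjusted p = 0.96). All 3 of its inotodiol values were above the 3 vehicle values, as for 5.15% of all genes. Nt5c3, a nucleotidase, was the gene of the list with all inotodiol values below the vehicle values (5.26% of all genes), at a log2 fold change of -0.23 ± 0.14; it is named after its values were seen. Aprt, which salvages adenine, stood at 0.40 ± 0.23 and Adss, the non-muscle adenylosuccinate synthase, at 0.78 ± 0.48.

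No AMPK subunit gene passed the test between the groups. Prkaa2, the catalytic alpha2 subunit (ENSMUSG00000028518.8, chromosome 4, 105029874 to 105109890), had 179, 162 and 155 CPM in vehicle and 149, 179.5 and 152 CPM in inotodiol libraries. Each group had 1 high mouse near 179 CPM. The log2 fold change was -0.046 ± 0.13 (95% interval -0.34 to 0.24), with 0.013 without vehicle replicate 1 and 0.0047 without inotodiol replicate 1. Prkab2, the beta2 scaffold (ENSMUSG00000038205.12, chromosome 3, 97658193 to 97673812), had 83.5, 84.9 and 101 CPM in vehicle and 92.2, 104 and 90.2 CPM in inotodiol libraries. Vehicle 1 and 2 were the lowest libraries and vehicle 3 lay among the inotodiol mice. Its log2 fold change was 0.090 ± 0.15 (95% interval -0.22 to 0.40).

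Prkag3, the gamma3 subunit of fast glycolytic fibres (ENSMUSG00000006542.13, chromosome 1, 74738922 to 74749221), had 92.7, 135 and 146 CPM in vehicle and 134.8, 135.5 and 133 CPM in inotodiol libraries. The inotodiol mice were nearly identical, with an SD of 1.04 CPM, and the vehicle mice ranged around them with an SD of 28.2 CPM. The log2 fold change was 0.11 ± 0.17 (95% interval -0.24 to 0.47), and -0.064 without vehicle replicate 1. Whether the spreads differ was not tested.

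Among the 7 AMPK subunit genes, all tested, 4 were above and 3 below 0, with a median of 0.075 and 0 called. That median was -0.040 without inotodiol replicate 3, 0.0047 without inotodiol replicate 1 and -0.034 with library totals. The other subunit genes gave wider intervals. Prkaa1 (alpha1) had a log2 fold change of -0.36 ± 0.30 and Prkag2 (gamma2) of 0.13 ± 0.27. Prkag1 (gamma1) stood at 0.075 ± 0.18. Prkab1 (beta1) had 65, 16 and 51 counts in vehicle and 27, 27 and 5 counts in inotodiol libraries, a log2 fold change of -1.08 ± 0.66 (unadjusted p = 0.13, adjusted p = 0.96 in edgeR). The log2 ratio of Prkab2 to Prkab1 was 4.52 ± 1.02 in vehicle and 5.85 ± 1.39 in inotodiol muscle (exact permutation p = 0.30). For Prkaa2 to Prkaa1 it was 3.64 ± 0.48 and 3.94 ± 0.52 (exact permutation p = 0.50), and for Prkag3 to Prkag1 0.69 ± 0.31 and 0.78 ± 0.39 (exact permutation p = 0.70). With single libraries left out the difference for Prkab2 to Prkab1 went from 1.33 down to 0.53 without inotodiol replicate 3, and that for Prkaa2 to Prkaa1 from 0.30 to 0.044 without vehicle replicate 3 and 0.023 without inotodiol replicate 2. None of the 7 ratios had an adjusted p under 0.875.

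**Figure D3:**
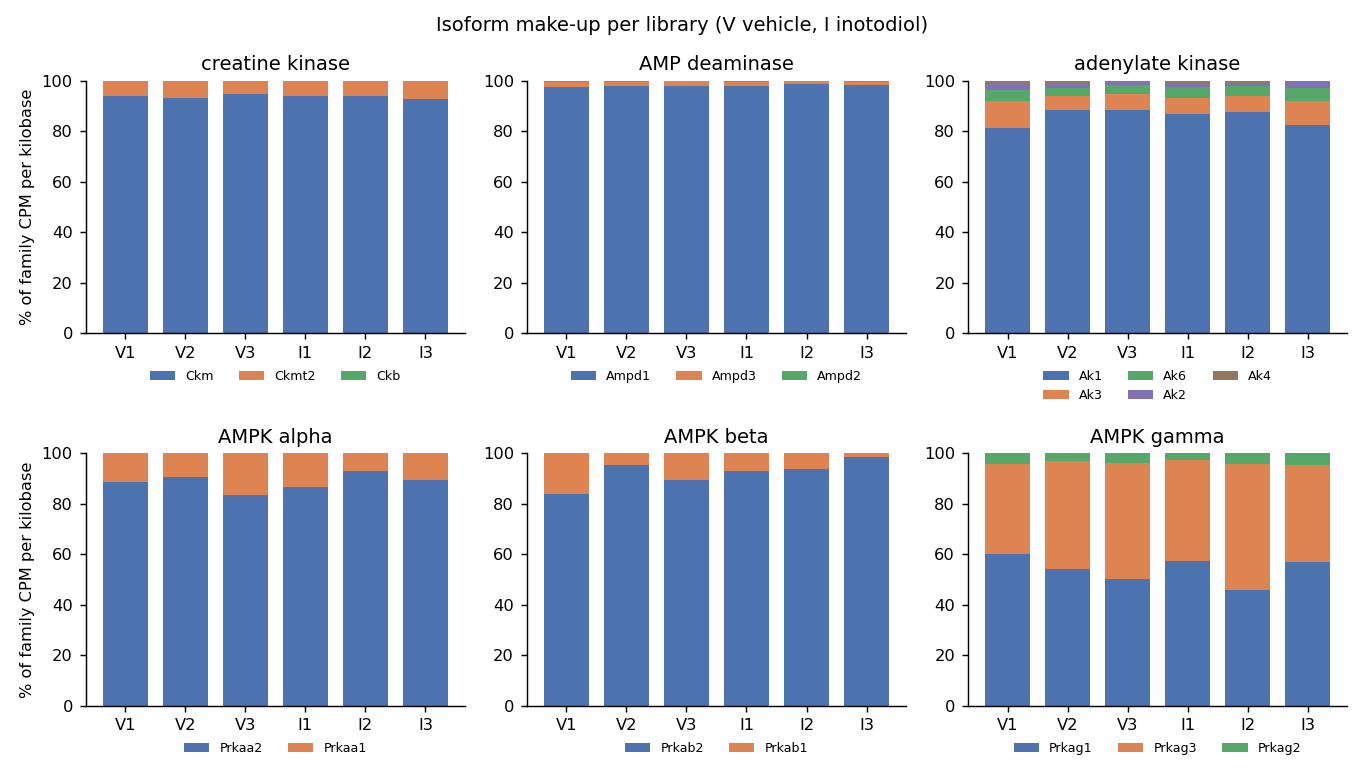
Share of each isoform in its family's CPM per kilobase of exon (y axis, percent) in vehicle libraries V1 to V3 and inotodiol libraries I1 to I3. Ckm makes up 92.7% to 95.03% of its family and Prkab2 83.9% to 98.7%, whereas Prkag3 makes up 35.6% to 50.2% on this scale and 52.1% to 66.0% in CPM not divided by length.

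Levels of different genes were compared per kilobase of exon, with exon lengths from GENCODE M21. It was not settled whether the counts rise with transcript length, and if they do not, this scale understates long transcripts such as Prkaa2. On it Ckm came first with 4997 ± 314 CPM per kilobase in vehicle muscle (SD, n = 3), followed by Ckmt2 with 307 ± 40.6, Ak1 with 239 ± 49.5 and Ampd1 with 217 ± 31.6. The last 2 did not differ beyond their spread. Prkag3 had 35.1 ± 7.95, Prkaa2 20.7 ± 1.51, Slc6a8 19.8 ± 1.47 and Prkab2 17.9 ± 1.94 CPM per kilobase, where Slc6a8 was within the spread of both neighbours, and Prkaa2 and Prkab2 differed by more than either SD. Gamt at 12.4 ± 7.88 overlapped them, and Ampd3 was lowest at 3.99 ± 0.56. In inotodiol muscle Slc6a8 and Prkab2 changed places, at 18.9 ± 2.27 and 19.1 ± 1.54, and the other genes kept their places. The order depends on the division by length. In CPM the vehicle means were 634 for Ampd1, 549 for Ak1 and 457 for Ckmt2, the opposite order, and Prkaa2 (165) lay above Prkag3 (125).

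Within families the muscle form made up most of the transcripts in every library on either scale, except for the gamma subunit of AMPK, where the scale decided. Ampd1 made up 97.5% to 99.0% of the AMP deaminase transcripts per kilobase and Ampd3 0.94% to 2.11%. Ak1 made up 81.4% to 88.6% of the 5 adenylate kinases tested. Prkaa2 made up 83.7% to 92.9% of the catalytic subunit. The gamma subunit per kilobase was 35.6% to 50.2% Prkag3, 45.7% to 60.1% Prkag1 and 2.80% to 4.61% Prkag2. In CPM not divided by length, Prkag3 was the majority in all 6 libraries, at 52.1% to 66.0%, with 28.0% to 41.0% Prkag1. Which scale fits these counts was not settled. In each of these families the shares per kilobase overlapped between the groups.

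Several of the 10 genes shared 1 low library. Vehicle 1 was the lowest of the 6 libraries for Gamt, Ak1, Ampd1, Prkab2 and Prkag3, 5 of the 10 genes, against 17.7% of all genes tested. Relative to library totals it was the lowest for 3 of the 10, Gamt, Ak1 and Prkag3, against 12.5% of all genes. The likeness of other genes was measured as the root mean square difference of centred log2 CPM over the 6 libraries, among 8477 genes that averaged 5 CPM or more. The pattern of Prkag3 was most closely followed by Fitm1, Abhd17a and Klhl40, at 0.044, 0.048 and 0.051. Fitm1 had 137, 193 and 199 CPM in vehicle and 183, 184 and 187 CPM in inotodiol libraries, with the same low vehicle 1 and the same narrow inotodiol group. For Ampd3 the nearest were Fam195b, Pygo2 and Ctsc, at 0.070, 0.079 and 0.085, and for Gamt they were Cox19, Serpinf1 and Mxra7, at 0.16, 0.18 and 0.19. Serpinf1 had 11.2, 16.7 and 40.0 CPM in vehicle and 17.5, 14.9 and 20.3 CPM in inotodiol libraries, also highest in vehicle 3. With so many genes and 6 libraries, close patterns are found for any gene, and no relation is read from them.

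Genes upstream of AMPK or related to it, and genes of its substrates, were described from lists. The first list also holds AMPK-related kinases such as Sik1, which are not counted here as acting on AMPK. Of 13 upstream kinases and partners, 12 were tested, 3 above and 9 below 0, with a median of -0.050 and 0 called. Camkk2, the calcium-dependent kinase of AMPK, stood at -0.70 ± 0.37 and Sik1, an AMPK-related kinase, at -0.50 ± 0.32. Strada, a partner of LKB1, stood at 0.27 ± 0.37. Flcn, folliculin, a negative regulator of AMPK, had 52.2 ± 2.65 and 42.8 ± 5.13 CPM (SD, n = 3), a log2 fold change of -0.29 ± 0.16 (unadjusted p = 0.097, adjusted p = 0.96), and was the gene of this list whose groups did not overlap, with inotodiol lower as for 5.26% of all genes. Of 15 substrates, 14 were tested, 6 above and 8 below 0, with a median of -0.0082 and 0 called. Tbc1d4, the AS160 protein that governs glucose transporter traffic, had 88.5, 59.5 and 47.2 CPM in vehicle and 48.0, 49.7 and 38.4 CPM in inotodiol libraries. Vehicle 1 was far above the rest and vehicle 3 lay below 2 of the inotodiol mice. Its log2 fold change was -0.52 ± 0.21 (unadjusted p = 0.030, adjusted p = 0.96) and -0.23 without vehicle replicate 1 (unadjusted p = 0.25). Ulk1, the autophagy kinase, stood at -0.25 ± 0.15, Acaca, an acetyl-CoA carboxylase, at 0.32 ± 0.32 and Hdac4, a histone deacetylase, at -0.23 ± 0.23.

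How large a difference these data could still hold differs by gene. For 8 of the 10 genes the 95% interval lay within a 1.5-fold change in either direction. The interval of Ampd3 reached a ratio of 0.523 and that of Gamt ran from 0.489 to 1.49, the only one of the 10 to pass a 2-fold change. The p-values miss the threshold and do not show that the groups are alike. RNA was measured, and neither phosphorylation of AMPK nor creatine or nucleotide content is in these tables.

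**Figure D4:**
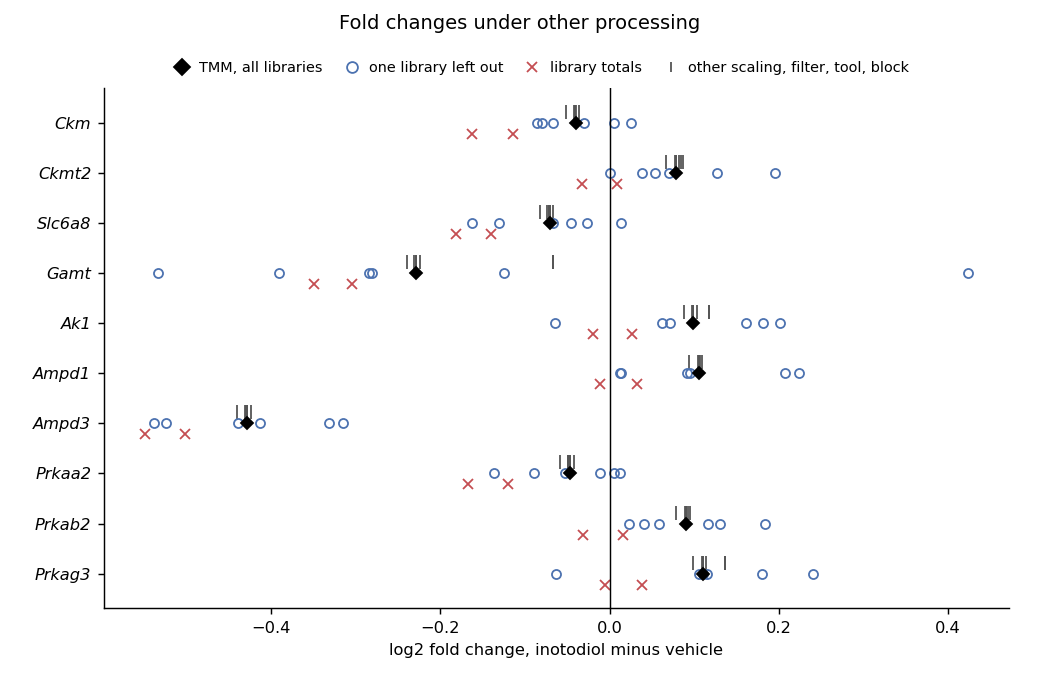
Log2 fold change of the 10 genes (x axis, inotodiol minus vehicle) with TMM scaling and all libraries (diamonds), with 1 library left out (circles), with library totals including or without Rn45s (crosses) and with other scaling, filters, tools or the replicate block (bars). Ampd3 stays between -0.55 and -0.31, and Gamt spans from -0.53 to 0.42 through vehicle replicate 3.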

How the data were processed

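The authors deposited 1 table of whole-number read counts per gene symbol for each of 6 libraries, with no normalization that the values show. The submitters' processing notes name Bowtie2, bedtools and mm10, the mouse genome build. Its version numbers, annotation, strand setting and handling of reads with several matches stayed unknown, being not given in the sources used here. Libraries, per the labels' protocols, came from 500 ng of total RNA and a Lexogen Quant-Seq kit.

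Of 23282 rows, 44 repeated a symbol and stayed separate. Genes were kept with edgeR's filterByExpr (minimum count 10, minimum total 15), scaled with TMM and compared in a two-sided quasi-likelihood test (edgeR 4.0.16 under R 4.3.3). The model held the group alone, and p-values were adjusted by Benjamini-Hochberg over the 11700 genes kept, at 0.05. The fit was tested on simulated data. Standard errors came from the fitted weights and quasi-dispersion. Ratios of counts were compared by exact permutation of the mice, without a pseudocount. DESeq2 1.42.0, limma 3.58.1 (voom), other scalings and filters, a replicate block and each library left out were alternatives; library totals without Rn45s were a choice made after seeing the data.

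The members and lists were chosen with earlier results of these data known. All 10 members are named, with every other measured creatine system gene and AMPK subunit and the 4 genes of smallest p in the other lists; the member of smallest p in each role group got the 3 genes of most similar pattern. Lists are described by counts and medians, without a test. Gene spans and exon lengths are from GENCODE M21 (GRCm38).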

Additional observations from a re-analysis of the deposited data

How the results depend on the processing

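None of the 10 energy genes was called under any of the 16 alternatives run. Over all genes edgeR called 0, against 95 with no filter on low counts, 1 with DESeq2 and 0 to 25 with single libraries left out, 25 without inotodiol replicate 3. The direction of 147 of 160 recomputed fold changes of the 10 genes was unchanged. It turned with library totals for Ckmt2 (-0.033), Ak1 (-0.020), Ampd1 (-0.012), Prkab2 (-0.031) and Prkag3 (-0.0057), where the median of all genes moved down too, to -0.12. With single libraries left out the log2 fold change ranged from -0.086 to 0.025 for Ckm, -0.16 to 0.013 for Slc6a8, -0.53 to 0.42 for Gamt, -0.064 to 0.20 for Ak1, -0.14 to 0.013 for Prkaa2 and -0.064 to 0.24 for Prkag3. The difference in log2 ratio ranged from -0.13 to 0.23 for Prkag3 to Prkag1, -0.13 to 0.12 for Ak1 to Ampd1 and -0.57 to 0.37 for Slc6a8 to Gamt. The other 4 ratios kept their sign but not their size, from 0.0016 to 0.22 for Ckmt2 to Ckm, 0.023 to 0.54 for Prkaa2 to Prkaa1, 0.53 to 1.88 for Prkab2 to Prkab1 and -0.75 to -0.32 for Ampd3 to Ampd1. With single libraries left out the list medians ranged from -0.067 to 0.032 for the creatine system, -0.058 to 0.043 for adenine nucleotide turnover, -0.040 to 0.066 for AMPK subunits, -0.054 to 0.032 for AMPK substrates, -0.31 to 0.11 for denervation and atrophy and -0.086 to -0.014 for upstream kinases. Whether the replicate numbers pair the mice was not settled. Deviations of libraries with the same number correlated at -0.081, 0.11 and 0.022, and libraries of different numbers were not compared in this way. The fit with the replicate block called 0 genes, and Gamt stood at -0.066 in it. Prkab1 had as few as 5 counts in a library, so counting error alone makes its values imprecise. The within-group SD of Gamt on the log2 scale, 0.63, exceeded that of 96.2% of the 500 genes at a like level, and was 0.22 for Ampd3.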

Other observations

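Further genes around the adenine nucleotide pool, singled out here after their values were seen, were abundant and differed by less than the spread of the mice. Slc25a4, the muscle form of the mitochondrial ATP and ADP exchanger, averaged 3038 ± 223 CPM in vehicle mice and 3187 ± 268 CPM in treated mice (SD, n = 3). Its log2 fold change was 0.069 ± 0.11 (SE). Adssl1, the muscle adenylosuccinate synthase that opens the purine nucleotide cycle closed by Ampd1, had 417 ± 44.1 and 390.3 ± 64.0 CPM, and Adsl, the lyase of the same cycle, 74.5 ± 10.7 and 72.7 ± 2.47 CPM. Adssl1 made up 99.0% to 99.8% of the 2 synthase transcripts per kilobase.

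Of the LKB1 complex that activates AMPK, Stk11, Cab39 and Stradb were likewise well covered, and are named after their values were seen. Strada was less well covered, with 41 to 93 counts a library and a log2 fold change of 0.27 ± 0.37. Stk11, which encodes LKB1, averaged 208 ± 4.75 CPM in vehicle mice and 214 ± 11.6 CPM in treated mice, with a log2 fold change of 0.042 ± 0.12 (95% interval -0.22 to 0.30). Its partners Cab39 and Stradb stood at -0.011 ± 0.15 and -0.043 ± 0.14.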
